A study of Mus musculus with 6 samples.

Results

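Aquaporins are channel proteins that let water, and in some members glycerol or hydrogen peroxide, cross cell membranes. The 6 genes described here are Aqp1, Aqp3, Aqp4, Aqp7, Aqp8 and Aqp11, taken by symbol from a table of 20594 genes measured in mouse colon. All 6 were found in it. The study is about colitis during pregnancy and the intestine of the offspring, and the RNA came from colon of 3-week-old C57BL/6J offspring. Dams of the 3 control libraries received 0% dextran sulfate sodium (DSS), and dams of the other 3, called maternal DSS, received 1.5%, both labelled as embryonic day 13 to 19. DSS is a sulfated polysaccharide that injures the colon lining when it is drunk. The series design text gives the exposure as 5 days in the second trimester. Each sample title speaks of 3 offspring, which may mean a pool of 3 animals or the number of animals in a group. No litter, dam, sex or batch is labelled, so p-values measure the spread between these libraries, which may be technical. A shared dam or litter and the DSS exposure cannot be told apart.

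The colon absorbs water behind ions that its epithelium takes up, partly across cell membranes and partly between cells. In rodents, Aqp8 is known from the surface epithelium of the colon, Aqp4 from the basolateral membrane of epithelial cells and from glia, and Aqp3 from the basolateral membrane of colon epithelium and from the skin. Aqp1 is the channel of capillary endothelium and red blood cells, Aqp7 carries glycerol out of fat cells, and Aqp11 sits in membranes inside the cell. Most aquaporins carry a pair of short boxes of asparagine, proline and alanine that meet in the middle of the pore.

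The codons of these boxes are shown because the members differ in how many boxes of the usual codons they carry. For each gene, the transcript with the longest reading frame in GENCODE M21 (GRCm38) was searched in frame for AAC or AAT, then CCN, then GCN, and for variants with GCN as the second codon or a serine or cysteine codon as the last. Capitals mark the box, and the sequences run 5′ to 3′ on the coding strand.
Aqp8, first box: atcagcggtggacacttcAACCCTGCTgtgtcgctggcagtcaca
Aqp8, second box: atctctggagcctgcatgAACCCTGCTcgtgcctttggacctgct
Aqp1, first box: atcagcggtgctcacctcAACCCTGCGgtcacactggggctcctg
Aqp1, second box: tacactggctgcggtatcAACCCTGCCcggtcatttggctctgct
Aqp3, first box: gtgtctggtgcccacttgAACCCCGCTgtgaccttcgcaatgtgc
Aqp3, second box: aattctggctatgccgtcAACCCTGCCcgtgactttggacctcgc
Aqp7, first box: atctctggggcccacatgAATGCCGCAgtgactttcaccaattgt
Aqp7, second box: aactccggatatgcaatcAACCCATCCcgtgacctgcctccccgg
Aqp11, first box: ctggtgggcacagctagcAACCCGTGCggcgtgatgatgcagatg
Aqp11, second box: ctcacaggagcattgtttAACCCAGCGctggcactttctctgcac

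Aqp1, Aqp3, Aqp4 and Aqp8 each held 2 boxes of the usual codons, Aqp11 held 1 and Aqp7 held 0. In Aqp11 the first box has TGC as its last codon. In Aqp7 the first box has GCC as its second codon, and the second box has TCC as its last. One further match in Aqp7, 862 bases into its reading frame of 909 bases, is not printed. The first box of Aqp8 lies in exon 3 at chr7:123464202-123464210 on the plus strand and the second in exon 5 at chr7:123466611-123466619. Those of Aqp11 lie in exon 1 at chr7:97737685-97737693 and exon 2 at chr7:97729053-97729061, on the minus strand. The boxes of Aqp7 lie in exon 5 at chr4:41035611-41035619 and exon 7 at chr4:41034813-41034821, on the minus strand.

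Levels are given in FPKM (fragments relative to transcript length and library size), so they can be set side by side between genes. Library-wide differences by transcript length, given below, limit this. Aqp8 had the highest level of the 6, with a mean of 229.7 ± 48.7 FPKM over all libraries (SD, n = 6), and ranked 260 among the 20594 genes. Aqp4 followed with 55.4 ± 8.74 and Aqp1 with 40.7 ± 2.19 FPKM. Aqp11 had 9.28 ± 0.829, Aqp3 0.901 ± 0.435 and Aqp7 0.321 ± 0.114 FPKM. The ranges over libraries of Aqp4 and Aqp1 touched (lowest Aqp4 42.4, highest Aqp1 42.9 FPKM), although Aqp4 was above Aqp1 in each library, by 1.06-fold to 1.75-fold. The ranges of Aqp3 and Aqp7 also overlapped, whereas the other neighbours in this order were apart in all 6 libraries. Within each library Aqp8 was 2.97-fold to 7.14-fold above Aqp4, and Aqp1 4.01-fold to 4.87-fold above Aqp11.

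**Figure D1:**
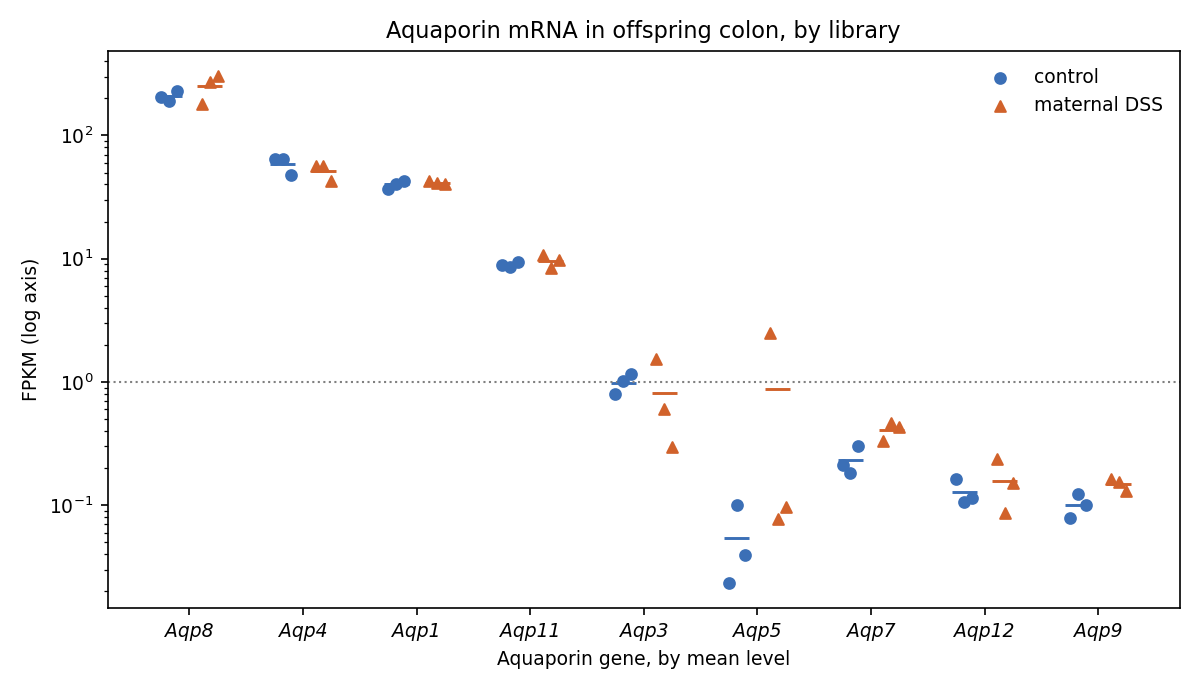
FPKM on a log axis of the 9 aquaporin genes in the table, each point 1 library (circles, control; triangles, maternal DSS) and each bar the mean of 3 libraries; the dotted line marks an FPKM of 1. Aqp8 lies highest in every library, and Aqp5 passes 1 FPKM in maternal DSS 1 alone.

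Aqp8 made up most of the aquaporin mRNA. It held 64.8%, 62.5% and 69.4% of the summed FPKM of the 6 genes in controls 1, 2 and 3, against 61.5%, 71.7% and 76.5% in maternal DSS 1, 2 and 3. Aqp4 held 20.4%, 21.0% and 14.4% in the controls and 19.5%, 15.0% and 10.7% in the maternal DSS libraries. Aqp1 held between 10.1% and 14.6%, Aqp11 between 2.23% and 3.65%, and Aqp3 and Aqp7 together under 1% in every library. Maternal DSS 1 had the lowest Aqp8 share of all 6 libraries and maternal DSS 3 the highest.

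No aquaporin passed the test between maternal DSS and control offspring. In limma, fitted on log2(FPKM + 1) over the 13594 genes with at least 1 FPKM in at least 3 libraries, 0% of genes had an adjusted p under 0.05 and the smallest adjusted p was 0.493. An unadjusted p under 0.05 was reached by 1064 genes (7.83%), among them 0 of the 5 tested aquaporins. By direction these were 2.42% of tested genes higher and 5.41% lower in maternal DSS. The groups did not overlap in 14.1% of tested genes (4.92% higher, 9.14% lower) and in 0 of these 5. Aqp7 stayed under the filter and was not tested in this fit. Of the 5 tested members 3 had positive and 2 negative fold changes, with a median log2 fold change of 0.043 against -0.037 over all tested genes. Rescaling each library to a common total (TPM) moved the median of all genes to -0.14, and 1 of the 5 was then positive.

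**Figure D2:**
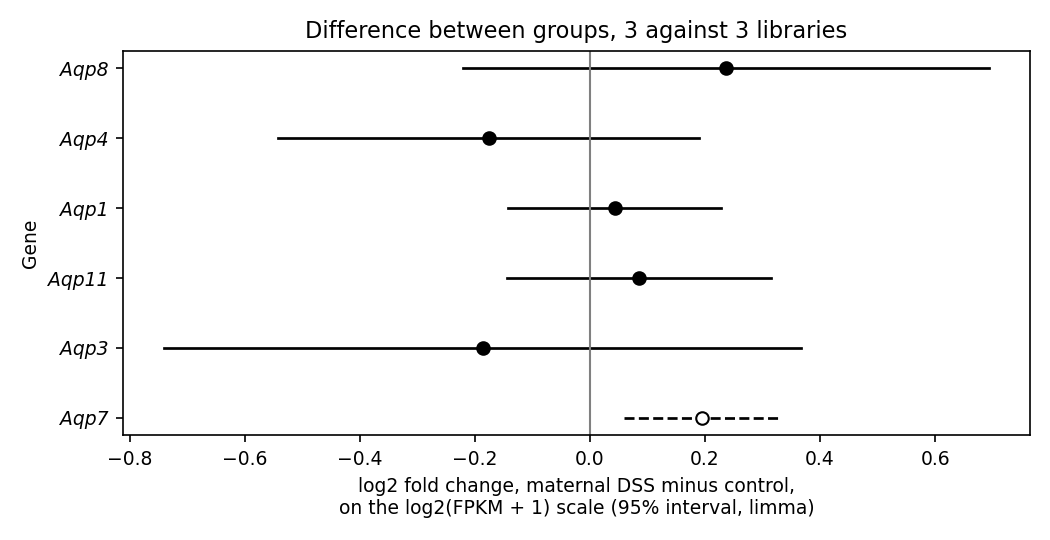
Log2 fold change of each aquaporin, as the difference in log2(FPKM + 1) of maternal DSS from control, with its 95% interval from limma (3 against 3 libraries). Filled points were tested in the filtered table, where each interval includes 0; the open point, Aqp7, comes from the fit without a filter on low values, where its adjusted p was 0.681.

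Aqp8 (chromosome 7, 123462294 to 123468003, GRCm38.p6) had 204, 190.5 and 230.6 FPKM in controls 1, 2 and 3. It had 178.9, 270.8 and 303 FPKM in maternal DSS 1, 2 and 3. Maternal DSS 2 and 3 lay above all controls and maternal DSS 1 below all of them, so the group did not move in 1 direction. The means were 251 ± 64.4 in maternal DSS and 208 ± 20.4 FPKM in control libraries (SD, n = 3 each), a log2 fold change of 0.24 (SE 0.19, 95% interval -0.22 to 0.69, adjusted p = 0.688 in limma). The size of the difference depended on which maternal DSS library was left out. Without maternal DSS 1 the log2 fold change was 0.46 (adjusted p = 0.148, unadjusted p = 0.00393 in limma). It was 0.16 without maternal DSS 2 and 0.084 without maternal DSS 3. When limma weighted libraries by their estimated spread, with weights from 0.249 (maternal DSS 1) to 5.47 (maternal DSS 2), the log2 fold change was 0.43 (adjusted p = 0.0147 in limma), in a fit that called 4933 genes. The exact permutation test over the 6 libraries gave p = 0.4 (two-sided, where 3 against 3 cannot go below 0.1).

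The order of the libraries in Aqp8 was shared by genes of other kinds. Among 13593 genes, the profile nearest to Aqp8, by the root mean square difference of log2(FPKM + 1) centred on each gene's own mean over the 6 libraries, was that of the ribosomal protein gene Rpl31 (0.030). Gm9892 (0.049) and the ribosomal protein gene Rpl26 (0.051) came next, against a spread of 0.27 of Aqp8 around its own mean. With so many genes and 6 libraries some profile always lies close. Rpl31 had 374.8, 344.7 and 418.4 FPKM in the controls and 342.1, 510.2 and 550.2 in maternal DSS 1, 2 and 3. Slc26a3, the chloride-bicarbonate exchanger of surface colonocytes, was picked after its values were seen. It had 221, 199 and 255 FPKM in the controls and 205, 289.7 and 304 in maternal DSS 1, 2 and 3. The ratio of Aqp8 to Slc26a3 stayed between 0.873 and 0.996, a 1.14-fold range, while Aqp8 itself ranged 1.69-fold. Of the 12 cell type and gut region lists compared, surface colonocyte genes had the mean profile nearest to Aqp8 (0.14), followed by the proximal colon list (0.15). These lists share Car1 and Car4. The distal colon (0.18) and goblet cell (0.19) lists came next, also below the spread of Aqp8 itself. The 12 surface colonocyte genes summed to between 13321 and 16005.5 FPKM in controls and between 15706.9 and 19429.3 in maternal DSS libraries, with none listed at 0. The small intestine list lay far from Aqp8 (0.51) but was high in the same 2 libraries in which Aqp8 exceeded all controls. Its 11 genes summed to 121, 98.5 and 110 FPKM in controls 1, 2 and 3, against 106, 235 and 252 in maternal DSS 1, 2 and 3. All 9 tested genes of that list had positive fold changes, with a median log2 fold change of 0.85 and 0 with an adjusted p under 0.05 in limma, and 6 of 9 were positive after TPM scaling. Fabp6, which encodes the ileal bile acid binding protein, had 14.2, 1.84 and 7.11 FPKM in the controls, and 2.08, 72.7 and 52.4 in maternal DSS 1, 2 and 3. Slc5a1 and Rbp2, which with Fabp6 had the highest mean levels of that list, differed less. Slc5a1 had 40.1 ± 3.99 FPKM in control and 42.2 ± 4.91 in maternal DSS libraries. Rbp2 had 27.55 ± 2.06 FPKM in control and 29.95 ± 7.94 in maternal DSS libraries (SD, n = 3 each). The part of gut region or of any cell type in the Aqp8 level was not tested. In bulk tissue, more cells of a type and more RNA per cell cannot be told apart.

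Library-wide differences by transcript length ran along the same order. Among tested genes whose longest transcript was at most 1750 nt (the shortest 25%), the median deviation from a gene's own mean was -0.054, -0.077 and 0.027 on the log2 scale in controls 1, 2 and 3. It was -0.062, 0.035 and 0.13 in maternal DSS 1, 2 and 3. Among the longest 25% (from 4460 nt) it was 0.11, 0.13 and -0.022 in the controls and 0.092, -0.082 and -0.22 in maternal DSS 1, 2 and 3. The longest transcript of Aqp8 annotated as protein coding has 1487 nt, and that of Aqp4 5054 nt. With the trend on length subtracted from every library, a setting chosen after the data were seen, the spread of Aqp8 around its mean went from 0.27 to 0.23 and that of Aqp4 from 0.21 to 0.14. The spread of the other 3 tested members grew, from 0.071 to 0.088 for Aqp1, from 0.31 to 0.33 for Aqp3 and from 0.10 to 0.13 for Aqp11, as did that of Slc26a3, from 0.24 to 0.27. The log2 fold changes were then 0.20 for Aqp8 and -0.060 for Aqp4.

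**Figure D3:**
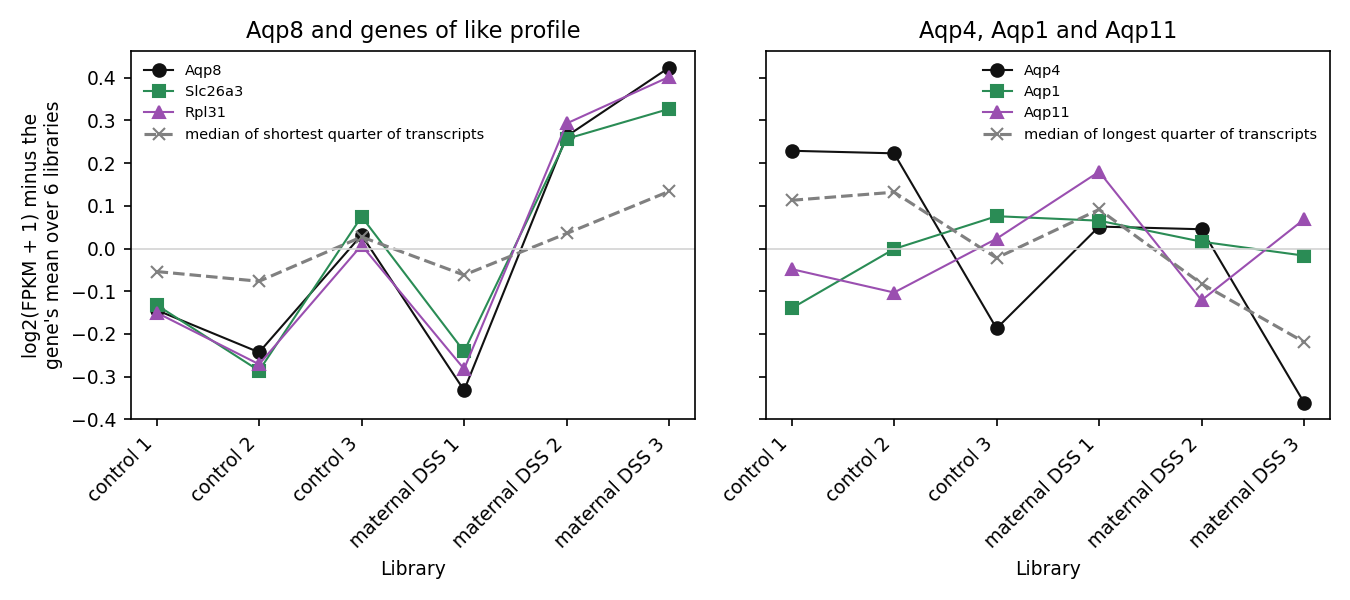
Deviation of log2(FPKM + 1) from the gene's own mean in each of the 6 libraries, for Aqp8 with Slc26a3 and Rpl31 (left) and for Aqp4, Aqp1 and Aqp11 (right); grey dashed lines are the medians of the shortest and the longest 25% of transcripts. Aqp8, Slc26a3 and Rpl31 lie lowest in maternal DSS 1 or control 2 and highest in maternal DSS 3, where Aqp4 lies lowest.

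Aqp4 (chromosome 18, 15389394 to 15410982) had 64.3, 64.1 and 48 FPKM in controls 1, 2 and 3, against 56.8, 56.5 and 42.4 in maternal DSS 1, 2 and 3. Control 3 and maternal DSS 3 were the low libraries, and the groups overlapped. The means were 51.9 ± 8.22 against 58.8 ± 9.37 FPKM (SD, n = 3 each), with a log2 fold change of -0.18 (SE 0.16, 95% interval -0.54 to 0.19, adjusted p = 0.699 in limma). The value moved to -0.31 without control 3 and to -0.040 without maternal DSS 3. Of the marker lists, that of crypt base and proliferating cells had the mean profile nearest to Aqp4 (0.14, against a spread of 0.21 of Aqp4 around its own mean). Its 8 genes summed to 62.5 to 76.8 FPKM in controls and 57.6 to 74.5 in maternal DSS libraries, and Mki67, a gene of dividing cells, had 20.6, 21.6 and 15.6 against 21.8, 15.9 and 11.4 FPKM. The 7 tested genes of the list, from which its profile was taken, all had negative fold changes, 0 with an adjusted p under 0.05 in limma. Olfm4, the gene not tested, went the other way. It had 0.147, 0.022 and 0.0959 FPKM in the controls and 0.557, 3.37 and 3.69 in maternal DSS 1, 2 and 3. Of the markers of enteric glia, Gfap had between 1.44 and 1.86 FPKM, and Foxd3 was under 1 in every library. The 8 glial genes summed to 71.7 to 78 FPKM in controls and 67.8 to 100.4 in maternal DSS libraries, with none listed at 0. The part of either cell type in the Aqp4 level was not tested.

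The ratio of Aqp8 to Aqp4 was 3.17, 2.97 and 4.81 in controls 1, 2 and 3, against 3.15, 4.79 and 7.14 in maternal DSS 1, 2 and 3. The highest ratio was in maternal DSS 3, the library in which the length trend given above was widest. With that trend subtracted, the deviation from the gene's own mean there went from 0.42 to 0.34 for Aqp8 and from -0.36 to -0.19 for Aqp4. The ratio was not recomputed on that scale. The groups overlapped, and the log2 ratio differed by 0.42 (2.25 ± 0.59 against 1.83 ± 0.38, SD, n = 3 each; exact permutation p = 0.5, two-sided).

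Aqp1 (chromosome 6, 55336299 to 55348555) was the steadiest member. It had 36.8, 40.6 and 42.9 FPKM in controls 1, 2 and 3, against 42.5, 41.1 and 40.1 in maternal DSS 1, 2 and 3, a 1.17-fold range. The maternal DSS values lay inside the control range. The means were 41.3 ± 1.21 against 40.1 ± 3.07 FPKM (SD, n = 3 each), a log2 fold change of 0.043 (95% interval -0.14 to 0.23, adjusted p = 0.852 in limma), and its sign turned without control 1 (-0.016) and after TPM scaling (-0.067). Blood endothelium, in which Aqp1 is known, had the nearest mean profile of the marker lists (0.078, against a spread of 0.071 of Aqp1 itself). The 12 endothelial genes summed to 90.5 to 106.6 FPKM in controls and 89.5 to 102.3 in maternal DSS libraries, and none was listed at 0. The ratio of Aqp1 to Plvap, a gene of fenestrated capillaries, lay between 1.66 and 2.01. Red blood cell transcripts varied far more than Aqp1. The adult beta-globin gene Hbb-bs, whose reads a near-identical copy can share, had 38, 43.1 and 105 FPKM in the controls and 183, 57.3 and 56.9 in maternal DSS 1, 2 and 3, while Slc4a1, a membrane protein gene of red cells, was under 1 FPKM in every library.

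Aqp11 (chromosome 7, 97726379 to 97738247) had 8.92, 8.55 and 9.42 FPKM in controls 1, 2 and 3, against 10.6, 8.43 and 9.75 in maternal DSS 1, 2 and 3. Maternal DSS 1 was highest and maternal DSS 2 lowest of all 6. The means were 9.6 ± 1.1 against 8.96 ± 0.439 FPKM (SD, n = 3 each), with a log2 fold change of 0.086 (95% interval -0.14 to 0.31, adjusted p = 0.753 in limma) that was -0.016 after TPM scaling. Its neighbour Clns1a lies 5586 bases away and had 11.8 ± 1.37 against 10.8 ± 0.288 FPKM.

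Aqp3 (chromosome 4, 41092724 to 41098183), which carries water and glycerol, was low in these colon libraries and varied most of the tested members. It had 0.795, 1.01 and 1.16 FPKM in controls 1, 2 and 3, against 1.54, 0.606 and 0.297 in maternal DSS 1, 2 and 3. It thus reached 1 FPKM in exactly 3 libraries, the minimum for testing. Maternal DSS 1 lay above all controls and the other 2 below them. The log2 fold change was -0.19 (SE 0.24, 95% interval -0.74 to 0.37, adjusted p = 0.780 in limma), which became -0.46 without maternal DSS 1 (adjusted p = 0.148, unadjusted p = 0.0139 in limma) and 0.026 without maternal DSS 3. It was -0.48 with a pseudocount of 0.1 and -0.36 after TPM scaling. The profiles nearest to Aqp3 were those of Igfbp5 (0.079), LOC115489078 (0.082) and the carboxypeptidase gene Cpz (0.086), against a spread of 0.31 of Aqp3 around its own mean. Of the 12 lists, enteric glia had the mean profile nearest to Aqp3 (0.19), and the squamous list, whose swings were larger, lay at 0.63.

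Squamous epithelial transcripts stood in a like order to Aqp3 at its extremes. The 9 squamous genes summed to 96.8, 88.9 and 81.3 FPKM in controls 1, 2 and 3, against 231, 56.3 and 26.9 in maternal DSS 1, 2 and 3, and none was listed at 0. Krt5, a basal keratin gene, had 11.7, 7.63 and 8.78 FPKM in the controls and 39.7, 4.75 and 1.59 in maternal DSS 1, 2 and 3. Krt13, a keratin gene of internal squamous linings, had 9.26, 10.6 and 8.27 FPKM in the controls and 19.8, 7.73 and 1.54 in maternal DSS 1, 2 and 3. The library with the highest Aqp3 thus had the highest Krt5 and Krt13, and the library with the lowest Aqp3 the lowest of both. The ratio of Aqp3 to Krt13 ranged 2.49-fold, against 5.18-fold for Aqp3 and 12.9-fold for Krt13. The ratio of Aqp3 to Krt5 ranged 4.825-fold, nearly as widely as Aqp3 itself. The part of squamous tissue in the Aqp3 level was not tested.

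**Figure D4:**
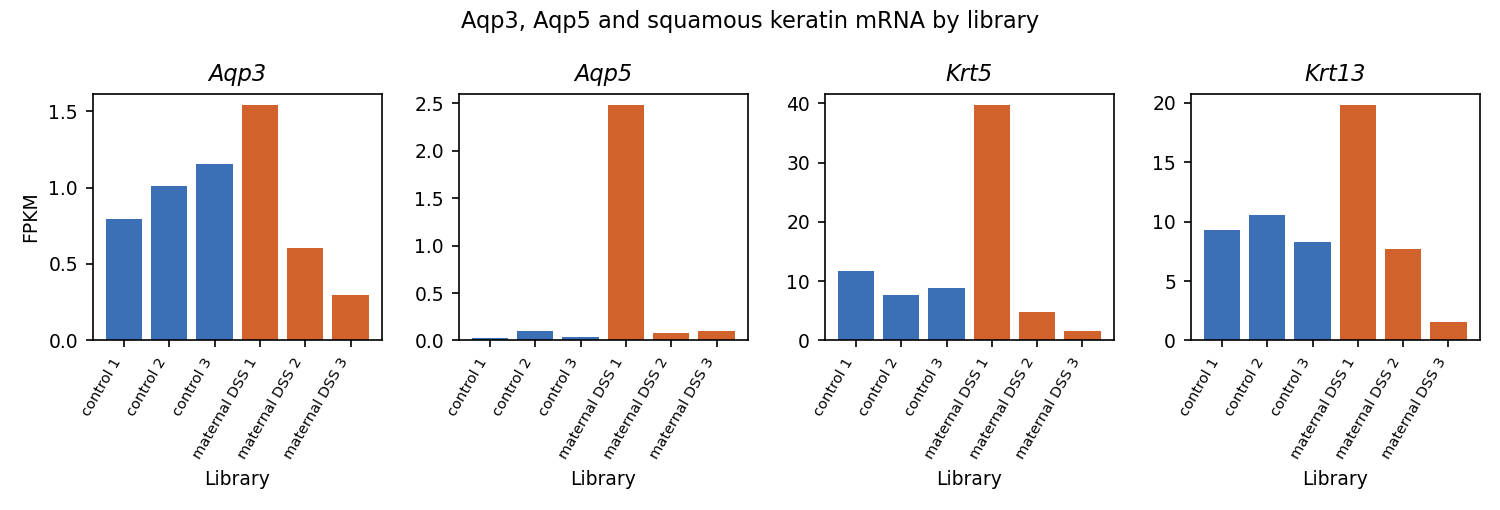
FPKM of Aqp3, Aqp5, Krt5 and Krt13 in each library (blue, control; orange, maternal DSS; each panel has its own scale from 0). Maternal DSS 1 is the highest library in all 4 panels, and maternal DSS 3 the lowest for Aqp3, Krt5 and Krt13.

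Aqp7 (chromosome 4, 41033074 to 41048237) lies 44487 bases from Aqp3 on the same strand. It had 0.211, 0.181 and 0.305 FPKM in controls 1, 2 and 3, against 0.334, 0.464 and 0.432 in maternal DSS 1, 2 and 3. The groups did not overlap: each maternal DSS library was above each control, the nearest being 0.334 and 0.305 FPKM. The same held in 299 of the 7000 genes under the filter (4.27%). The means were 0.41 ± 0.0679 against 0.232 ± 0.0644 FPKM (SD, n = 3 each), a difference of 0.19 on the log2(FPKM + 1) scale. Without a filter limma gave it an adjusted p of 0.681 and an unadjusted p of 0.0121. In that limma fit an unadjusted p under 0.05 was reached by 1474 of the 20594 genes. The exact permutation test gave p = 0.1 for Aqp7, the smallest it can give. Such levels rest on few reads, and the depth is unknown.

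Adipocyte genes are given beside Aqp7 because it is a channel of fat cells. Their mean profile lay at 0.231 from that of Aqp7, against a spread of 0.114 of Aqp7 around its own mean. Of the 12 lists, proximal colon had the mean profile nearest to Aqp7 (0.067), followed by surface colonocytes (0.105). In none of the 9 tested adipocyte genes were the groups apart. The 10 adipocyte genes summed to 138 to 243 FPKM over the control libraries and 168 to 232 over the maternal DSS libraries, none of them listed at 0. Lep, the leptin gene, was under 1 FPKM in every library and not tested, and its groups did not overlap. It had 0.221, 0.276 and 0.569 FPKM in the controls, and lower values of 0.127, 0.142 and 0.0797 in maternal DSS 1, 2 and 3, the opposite direction to Aqp7. All maternal DSS libraries were lower in 9.14% of tested genes. Without a filter the groups did not overlap in 2650 of 20594 genes, 968 of them with all maternal DSS libraries higher. The lower direction was not counted separately among genes under the filter, where Lep lies. Without a filter limma gave Lep an adjusted p of 0.681. Adipoq, the adiponectin gene, had 3.98, 4.7 and 11.5 FPKM in controls 1, 2 and 3, against 3.68, 12.3 and 10.2 in maternal DSS 1, 2 and 3. Control 3 and maternal DSS 2 and 3 were the high libraries in Adipoq, and the groups overlapped. The part of fat tissue in the Aqp7 level was not tested. Of the 15 tested genes of glycerol handling 9 were higher and 6 lower in maternal DSS, none with an adjusted p under 0.05 in limma, with a median log2 fold change of 0.023. After TPM scaling 6 of the 15 were higher. The lipase gene Pnpla2 had 34 ± 1.73 against 31.8 ± 3.07 FPKM, and Gk, whose enzyme phosphorylates glycerol, had 11.6 ± 3.73 against 10.5 ± 2.84 (SD, n = 3 each).

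Of the other members of the family, Aqp5, Aqp9 and Aqp12 were in the table, and none reached 1 FPKM in 3 libraries. Aqp5, a water channel of secretory glands, had 0.0236, 0.0997 and 0.0394 FPKM in the controls, 2.48 in maternal DSS 1, and then 0.078 and 0.0968 in the other 2 libraries of that group. It was 24.9-fold higher in maternal DSS 1 than in the next library, the library in which Aqp3 and the squamous keratins were also highest. Aqp9, a channel of liver and immune cells, stayed between 0.0788 and 0.164 FPKM, and Aqp12, a channel of pancreatic acinar cells, between 0.0859 and 0.238. As in Aqp7, each maternal DSS library was above each control in Aqp9, the nearest being 0.130 and 0.124 FPKM. The same held in 4.27% of genes under the filter. Without a filter limma gave Aqp9 an adjusted p of 0.695.

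None of the genes for the ion transport that water follows passed the test. Of 24 tested genes 17 were higher and 7 lower in maternal DSS, with a median log2 fold change of 0.068 and 0 with an adjusted p under 0.05 in limma. After TPM scaling 10 of the 24 were higher. The groups did not overlap in 3 of them, Guca2a, Scnn1a and Kcnma1, against 14.1% of all tested genes. Guca2a, which encodes guanylin, had 1107 ± 52.1 FPKM in control and 1329 ± 152.5 in maternal DSS libraries. Car1, a carbonic anhydrase gene, had 5082.4 ± 551.7 FPKM in control and 6580.3 ± 987.4 in maternal DSS libraries. Clca1, a gene of goblet cell secretion, had 1158.3 ± 132 FPKM in control and 1125.8 ± 328 in maternal DSS libraries. Scnn1a, a subunit of the epithelial sodium channel, had 28.9 ± 1.73 FPKM in control and 24.2 ± 1.89 in maternal DSS libraries. Kcnma1, a potassium channel gene, had 6.53, 6.42 and 6.26 FPKM in controls 1, 2 and 3, against 5.22, 4.76 and 4.5 in maternal DSS 1, 2 and 3 (a log2 difference of -0.35 with SE 0.08, adjusted p = 0.620 in limma). Scnn1a and Kcnma1 were chosen after their values were seen.

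Osmotic stress and peroxide handling are other settings in which aquaporins are studied. Of 15 tested osmotic stress genes 4 were higher and 11 lower, with a median log2 fold change of -0.12 and 0 with an adjusted p under 0.05 in limma. Nfat5, the transcription factor of the response to high salt, was picked after its values were seen. It had 7.15, 6.86 and 4.38 FPKM in controls 1, 2 and 3, against 6.4, 3.86 and 3.19 in maternal DSS 1, 2 and 3, so control 3 and maternal DSS 2 and 3 were low. Of 17 peroxide handling genes 14 were higher and 3 lower, with a median of 0.11, and 10 of 17 were higher after TPM scaling. Prdx6, a peroxiredoxin gene, had 425, 340 and 564 FPKM in the controls and 320, 525 and 658 in maternal DSS 1, 2 and 3, with its low libraries the same 3 as those of Aqp8, controls 1 and 2 and maternal DSS 1.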

How the data were processed

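The values are FPKM per gene and library, as the authors deposited them. Per the labels' protocols, colon RNA was extracted with a kit for lipid-rich tissue, and the mRNA libraries were stranded. Tools listed in the submitters' processing notes, with no role or order, are HISAT2 2.1.0 and StringTie 2.1.3b, Trimmomatic 0.38, DESeq2 (version not listed) and FastQC 0.11.7. They list mm10 as the build. For the annotation, no name is given in the sources used here. Low values show no whole-read steps (at most 2.17% of genes under 0.02 FPKM shared 1 ratio between libraries, within 1%), so the depth is unknown and counting intervals are left out. FPKM sums ranged from 403673 to 492719 per library.

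Genes with at least 1 FPKM in 3 libraries were tested on log2(FPKM + 1) with limma 3.58.1 in R 4.3.3 (mean-variance trend, group alone, Benjamini-Hochberg threshold 0.05). Fold changes on this scale understate changes of low genes. The fit was tested on simulated data. Coordinates come from RefSeq genes of GRCm38.p6 (mm10 is GRCm38), which matched 19959 symbols and all 6 members. Coding sequences come from GENCODE M21. Of the 13594 tested genes 97.1% had a transcript length.

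Members and lists were chosen with earlier results of these data known. Named list genes were up to 3 of those with the highest mean level in each list. From most lists fewer than 3 were printed, and which of them was not fixed by a rule. Others are said to be chosen after their values were seen. These are Slc26a3, Krt5, Krt13, Gfap, Foxd3, Slc4a1, Adipoq, Lep, Gk, Scnn1a, Kcnma1, Nfat5 and Olfm4. Alternatives were another pseudocount, filters, scalings, weights, a replicate block and leaving out libraries. Aqp4 sequence is not printed here.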

Additional observations from a re-analysis of the deposited data

How the results depend on the processing

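In the settings tried, only array weights gave an aquaporin an adjusted p under 0.05 in limma (Aqp8, log2 fold change 0.43), in a fit that called 4933 genes. Signs turned in few places, for which the cause was not tested. TPM scaling gave -0.067 for Aqp1 and -0.016 for Aqp11, and array weights gave -0.026 for Aqp11. Leaving out 1 library at a time gave log2 fold changes of -0.016 to 0.092 for Aqp1, -0.46 to 0.026 for Aqp3, -0.31 to -0.040 for Aqp4, 0.16 to 0.24 for Aqp7, 0.084 to 0.46 for Aqp8 and 0.017 to 0.17 for Aqp11. With a pseudocount of 0.1 Aqp7 had 0.63 and Aqp3 -0.48, and after TPM scaling they had 0.29 and -0.36. At the stricter filter of 5 FPKM Aqp3 and Aqp7 gave no value. Leaving out 1 library gave 0 to 12 called genes and 2392 to 6143 genes whose groups did not overlap, the highest without maternal DSS 1. With 1 library fewer, groups lie apart more often by order alone, so the latter counts cannot be set beside that over all libraries. The stricter filter gave 1198 such genes. The labels do not mark same-numbered libraries as paired, so they were not taken as such. They deviated together in pairs 1 and 3 and opposite ways in pair 2 (correlations across genes of 0.276, 0.404 and -0.384). Differently numbered libraries ranged from -0.541 (control 3 with maternal DSS 1) to 0.512 (control 2 with maternal DSS 1). With the replicate block 0 genes were called, and Aqp4 had -0.18 (unadjusted p = 0.043, adjusted p = 0.397 in limma). An unadjusted p under 0.05 in limma was reached by 1064 genes as reported, 1474 without a filter, 1678 with the block and 677 at the stricter filter. It was reached by 6784 genes with array weights, and by 401 (without control 2) to 3368 (without maternal DSS 1) when 1 library was left out. The unknown depth limits Aqp3 and Aqp7 most.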

Other observations

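Maternal DSS 1, the library with Aqp5 transcript, also held other transcripts that stood apart. By a rule chosen after the values were seen, 19 genes reached at least 1 FPKM there and at least 4-fold the level of every other library, against 2 to 13 genes in the other 5 libraries. Crisp1, a gene of the secreted CAP protein family, had 10.5 FPKM there and at most 0.266 elsewhere. Genes of striated muscle were among them: Myh4, a fast myosin heavy chain gene, had 7.84 FPKM against at most 1.26, Sln, which encodes sarcolipin, had 22.6 against at most 3.86, and Csrp3 had 6.98 against at most 1.65. The imprinted RNA gene H19 had 106 against at most 18.9 FPKM.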
